A study of Mus musculus with 8 samples.

Results

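Immediate early genes are switched on within minutes of a signal without new protein synthesis, and 10 of them (Fos, Jun, Junb, Egr1, Ier2, Atf3, Zfp36, Dusp1, Klf6 and Btg2) were read out in mouse liver by gene symbol, each found once among the 24547 genes of the deposited table. The 8 libraries were made from liver tissue of ICR mice, an outbred strain, taken by laparotomy after death. In the treated group, 4 libraries came from animals given the high-dose Psoraleae Fructus decoction (an extract of the fruit of Psoralea corylifolia) into the stomach for 30 days, and 4 libraries are labelled Control, for which the protocol names saline by the same route. The labels give no sex, age, hour of collection, batch or mass of the dose, and do not say whether libraries came from separate animals, so p-values measure only the spread between these libraries. Library totals ran from 15864399 to 20159132 counts. The labelled tissue was checked against 6 hepatocyte markers, whose summed level was 103000 to 151000 CPM in every library (CPM is defined below).

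As background, growth factor, cytokine and stress signals reach these genes through the MAP kinases, which phosphorylate factors already sitting on the promoters (SRF with its ETS partners, CREB and ATF proteins). The first products are transcription factors of the AP-1, EGR and KLF families. Others end the response: Zfp36 destroys AU-rich messenger RNAs and Dusp1 dephosphorylates the MAP kinases. In liver these genes are known for their brief induction after partial removal of the organ, and their messenger RNAs are short-lived.

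Levels are given as CPM, counts scaled to a common library size with TMM (trimmed mean of M-values) factors, and as the deposited FPKM where genes are compared with each other, since FPKM also divides by gene length. Fold changes are log2, treated minus control, from edgeR's quasi-likelihood F test over 12861 genes with Benjamini-Hochberg adjustment. The comparison asks which liver genes differ after the decoction. None of the 10 immediate early genes was called at an adjusted p under 0.05, where 9.21% of all tested genes were called (5.46% higher and 3.75% lower in the treated group). None had an unadjusted p under 0.05 by edgeR's test, where 29.4% of all tested genes did. DESeq2 called 0 of the 7 genes for which it gave an adjusted p, and limma-voom called 0 of 10. Over all 12861 tested genes DESeq2 called 2213 and limma-voom 1004. The log2 fold changes were above 0 for 6 genes and below 0 for 4, where 53.3% of all tested genes lay below 0, with a median of 0.30 against -0.037 for all tested genes.

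Treated library 2 held the highest level of the 8 libraries for 9 of the 10 genes, all but Klf6, and the highest of the treated group for all 10. The same library was the highest of 8 for 8.57% of the 12036 genes whose mean over all libraries reached 1 CPM, the smallest share of any of the 8 libraries. In it, 2.29% of genes lay more than 2-fold from the mean log2 level of the other treated libraries, against 1.35% to 2.5% in treated libraries 1, 3 and 4. Because treated library 2 was the highest treated library for all 10 genes, leaving it out had to lower their fold changes. The shares of all genes given beside fits without it are thus not a like background. Without this library the log2 fold changes were below 0 for 9 of the 10 genes, where 52.4% of all genes tested were below 0. The median was -0.76 against -0.028 for all genes. None was called then either (3.51% of all genes were), while 4 of 10 had an unadjusted p under 0.05, against 25% of all genes. With control 4 left out as well, a setting picked once the levels were known and resting partly on the members themselves, 3 genes were called lower by edgeR's test: Egr1 at a log2 fold change of -1.16 (adjusted p = 0.0461), Atf3 at -1.70 (adjusted p = 0.0341) and Btg2 at -1.23 (adjusted p = 0.0415). In that setting 11.9% of all genes were called and 5.39% were called lower.

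**Figure D1:**
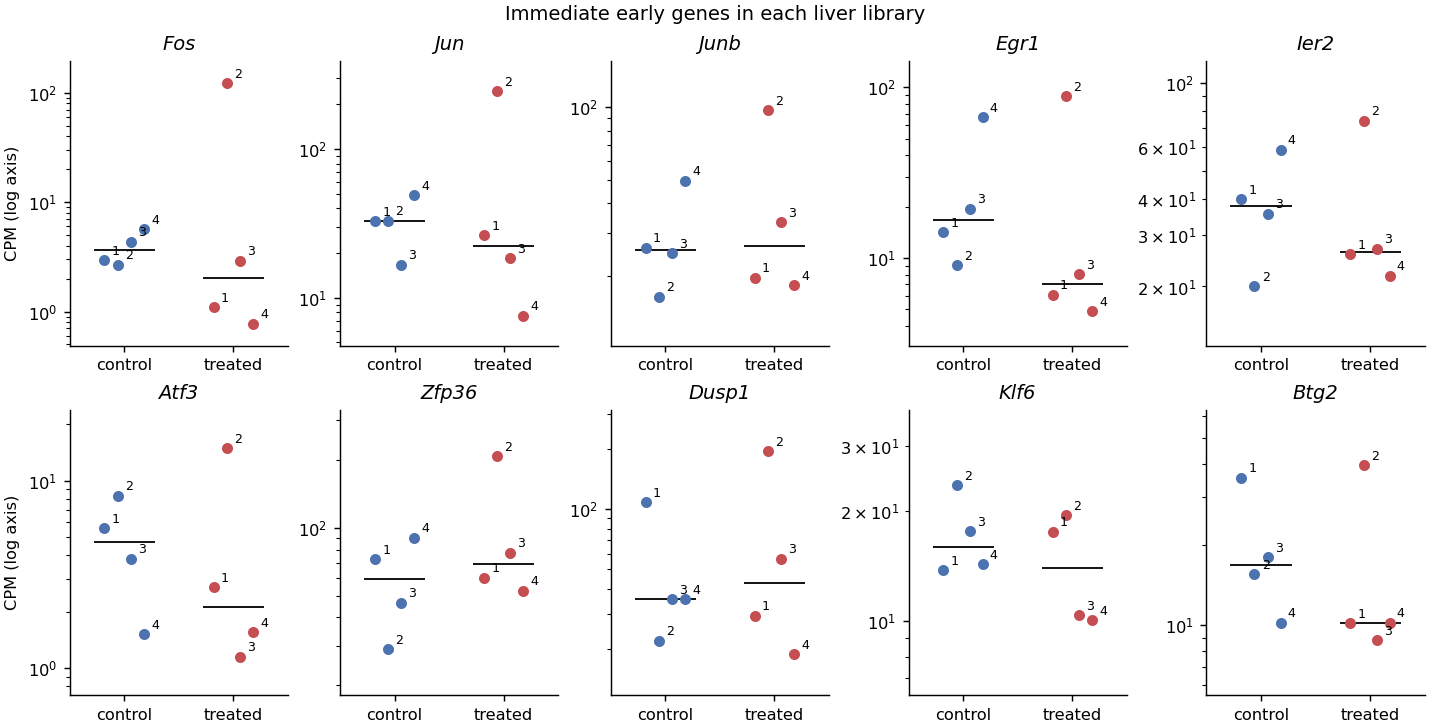
Level of each gene in each library, as CPM on a log axis whose range differs between panels. Points are libraries, numbered by replicate, and lines are group medians. Treated library 2 is the highest of 8 in every panel but Klf6.

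Fos, the AP-1 subunit that dimerizes with Jun proteins (chromosome 12, 85473890 to 85477273 on GRCm38), showed the widest range. It stood at 2.94, 2.69, 4.34 and 5.67 CPM in controls 1 to 4 and at 1.1, 122, 2.91 and 0.776 CPM in treated libraries 1 to 4. The reads behind these levels numbered 2074 in treated library 2 and 13 to 108 in the other 7 libraries. By CPM, treated library 2 was 21.5 times the highest of all the others. Treated libraries 1 and 4 lay below every control and treated library 3 lay inside the control range, so that the mean of the treated group, 31.6 ± 60.0 (SD, n = 4), lay above the control mean of 3.91 ± 1.38 while its median, 2.01, lay below the control median of 3.64. The log2 fold change was 3.01 (SE 1.65, adjusted p = 0.272) with all libraries by edgeR's test and -1.28 (SE 0.50, adjusted p = 0.161) without treated library 2.

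Jun, the AP-1 subunit that also binds DNA as a homodimer (chromosome 4, 95049034 to 95052222), was likewise highest in treated library 2 and lowest in treated library 4. It stood at 32.9, 32.9, 16.7 and 48.9 CPM in the controls and at 26.3, 245, 18.5 and 7.59 CPM in the treated libraries. Treated library 2 was 5.01 times the next highest library, control 4. By edgeR's test the log2 fold change was 1.18 (SE 1.07, adjusted p = 0.502) and turned to -0.89 (SE 0.48, adjusted p = 0.288) without treated library 2. Junb, a Jun relative with a weaker activation domain (chromosome 8, 84974484 to 84978718), stood at 26.1, 16.3, 24.8 and 49.6 CPM in the controls and at 19.6, 97.1, 33.4 and 18.2 CPM in the treated libraries. Here control 4 was the second highest, and the other libraries of the groups overlapped. Treated minus control, the edgeR log2 fold change was 0.53 (SE 0.61, adjusted p = 0.606), and -0.28 (SE 0.39, adjusted p = 0.688) without treated library 2.

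The promoters of Fos, Jun, Zfp36 and Dusp1 are shown because these genes moved together in treated library 2 and differ in which binding motifs lie near the start. Windows of 300 bases (250 before to 50 after the start, RefSeq on GRCm38.p6) were at hand for 8 of the 10 genes, all but Egr1 and Ier2. The RefSeq start lies inside a longer GENCODE gene span for Dusp1, Zfp36, Atf3 and, by a few bases, Klf6. For Junb and Btg2 it lies just outside the span. The windows of all these genes thus do not sit at the GENCODE gene start. The motifs were searched on both strands: the cAMP response element TGACGTCA, its looser form TGACNTCA, the core TGACG that lies within the full element, the AP-1 element TGANTCA, and the SRF site known as the CArG box. Capitals mark every match to these motifs.
Fos promoter, chr12:85473640-85473939, plus strand: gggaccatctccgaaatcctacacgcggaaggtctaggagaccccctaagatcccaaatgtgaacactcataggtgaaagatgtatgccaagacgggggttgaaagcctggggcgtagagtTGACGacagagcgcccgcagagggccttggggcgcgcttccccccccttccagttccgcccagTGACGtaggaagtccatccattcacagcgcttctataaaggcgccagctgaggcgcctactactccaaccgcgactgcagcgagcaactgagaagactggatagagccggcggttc
Jun promoter, chr4:95052173-95052472, minus strand: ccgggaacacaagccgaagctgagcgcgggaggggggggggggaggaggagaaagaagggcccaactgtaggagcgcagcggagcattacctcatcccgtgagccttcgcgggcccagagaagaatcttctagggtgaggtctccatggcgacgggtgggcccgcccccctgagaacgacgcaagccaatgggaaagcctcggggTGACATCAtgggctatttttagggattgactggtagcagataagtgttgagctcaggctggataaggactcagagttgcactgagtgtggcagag
Zfp36 promoter, chr7:28379179-28379478, minus strand: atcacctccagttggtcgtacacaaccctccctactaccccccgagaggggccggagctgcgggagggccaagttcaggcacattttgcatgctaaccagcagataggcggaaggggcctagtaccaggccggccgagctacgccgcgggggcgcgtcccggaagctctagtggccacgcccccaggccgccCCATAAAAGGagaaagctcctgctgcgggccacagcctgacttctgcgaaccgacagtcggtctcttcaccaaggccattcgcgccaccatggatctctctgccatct
Dusp1 promoter, chr17:26508423-26508722, minus strand: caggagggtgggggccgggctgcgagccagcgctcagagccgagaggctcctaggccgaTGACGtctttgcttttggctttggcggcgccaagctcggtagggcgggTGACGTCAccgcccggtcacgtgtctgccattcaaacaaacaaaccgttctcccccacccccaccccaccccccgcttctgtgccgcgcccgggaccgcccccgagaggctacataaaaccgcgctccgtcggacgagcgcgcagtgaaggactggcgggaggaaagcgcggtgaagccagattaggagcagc
The core TGACG was found in 5 of 8 windows (Fos, Junb, Atf3, Dusp1 and Btg2), against 20.9% of the 32544 different windows in the RefSeq table. Fos carried it at -129 and at -66 from the start, counted at the first base of the match. The full element TGACGTCA was found in Dusp1 at -143 and in Btg2 at -166, where it also counts as a match to both shorter forms, and in 1.8% of all windows. TGACNTCA was found in 4 of 8, adding Jun at -45 and Klf6 at -119, against 8.62% of all. Among the 8 windows, Zfp36 alone held a CArG box, at -58, against 1.64% of all, and none held TGANTCA, found in 7.79% of all. Sites farther upstream than these windows reach were not searched. The motifs were chosen with the sequences in view, and a match is a description of letters, not of binding.

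Atf3, a CREB-family repressor induced by stress (chromosome 1, 191170296 to 191218039), stood at 5.59, 8.33, 3.83 and 1.52 CPM in the controls and at 2.70, 14.9, 1.15 and 1.55 CPM in the treated libraries. Treated library 2 was again the highest, yet the second highest was control 2 and control 4, the highest control for Fos, Jun and Junb, was the lowest control here. The edgeR log2 fold change was 0.07 (SE 0.87, adjusted p = 0.966), and -1.39 (SE 0.55, adjusted p = 0.169) without treated library 2.

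Egr1, a zinc finger factor that MAP kinase signalling induces through SRF (chromosome 18, 34859823 to 34864984), stood at 14.1, 9.05, 19.5 and 67.0 CPM in the controls and at 6.10, 88.9, 8.01 and 4.90 CPM in the treated libraries. Treated library 2 and control 4 were far above the rest, and the 3 remaining treated libraries were the lowest of all 8. Without treated library 2 the groups did not overlap for Egr1 and Btg2, both lower, as was the case for 24.1% of the 12036 genes (11.6% lower). By edgeR's test the log2 fold change was -0.03 (SE 1.13, adjusted p = 0.991) with all libraries, -2.10 (SE 0.75, adjusted p = 0.152) without treated library 2 and 0.93 (SE 1.23, adjusted p = 0.644) without control 4. Its direction, near 0 with all libraries, thus turned when control 4 was left out. It also turned without treated library 1 (0.31), 3 (0.28) or 4 (0.32). Klf6, a Krüppel-like transcription factor known from activated stellate cells (chromosome 13, 5861482 to 5870394), differed from the others. It stood at 13.8, 23.5, 17.6 and 14.3 CPM in the controls and at 17.5, 19.5, 10.4 and 10.1 CPM in the treated libraries, with control 2 the highest. Its treated library 2 level was 1.11 times the next treated library, the smallest such ratio of the 10 genes. Treated minus control, the edgeR log2 fold change was -0.27 (SE 0.26, adjusted p = 0.525), and -0.43 (SE 0.26, adjusted p = 0.331) without treated library 2.

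Ier2, which encodes a small nuclear protein (chromosome 8, 84661331 to 84662852), stood at 39.9, 20.01, 35.5 and 58.9 CPM in the controls and at 25.7, 74.2, 27.0 and 21.7 CPM in the treated libraries. Treated libraries 1, 3 and 4 were close to each other, at 24.8 ± 2.73 CPM (SD, n = 3), and only control 2 lay below them. The edgeR log2 fold change was -0.05 (SE 0.47, adjusted p = 0.952), and -0.62 (SE 0.32, adjusted p = 0.266) without treated library 2.

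The genes that end the response showed the same excess in treated library 2. Zfp36, which encodes tristetraprolin (chromosome 7, 28376784 to 28380253), stood at 72.4, 29.0, 46.5 and 90.5 CPM in the controls and at 60.1, 208, 77.6 and 52.7 CPM in the treated libraries. It was the only gene of the 10 whose fold change stayed above 0 when treated library 2 was left out, at 0.11 (SE 0.36, adjusted p = 0.878) by edgeR's test against 0.74 (SE 0.53, adjusted p = 0.386) with it. Control 2 was the lowest of all 8 libraries. Dusp1, a phosphatase of the p38 and JNK kinases that glucocorticoids also induce (chromosome 17, 26505590 to 26562128), stood at 108, 22.0, 35.5 and 35.4 CPM in the controls and at 29.3, 195, 56.5 and 18.9 CPM in the treated libraries. Control 1 was the second highest and stood 4.94 times above control 2, the lowest control. By edgeR's test the log2 fold change was 0.57 (SE 0.84, adjusted p = 0.69), -0.50 (SE 0.63, adjusted p = 0.659) without treated library 2 and 1.28 (SE 0.86, adjusted p = 0.38) without control 1. Btg2, an antiproliferative gene that p53 also induces (chromosome 1, 134075170 to 134079120), stood at 35.5, 15.5, 17.98 and 10.2 CPM in the controls and at 10.2, 39.6, 8.80 and 10.2 CPM in the treated libraries. Its high libraries were treated library 2 and control 1. Treated libraries 1, 3 and 4 stood at 9.74 ± 0.811 CPM (SD, n = 3), and the highest of them lay just under the lowest control, control 4, so the gap between the groups without treated library 2 was too small to read. Treated minus control, the edgeR log2 fold change was -0.20 (SE 0.60, adjusted p = 0.856), and -1.0 (SE 0.38, adjusted p = 0.159) without treated library 2.

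With all libraries the groups overlapped for each of the 10 genes, where 19.6% of the 12036 genes had no overlap. Averages on a log scale gave other values: limma-voom, which averages log2 levels, put the log2 fold change of Fos at 0.12 (SE 1.36) and that of Jun at 0.003 (SE 0.88), with 5 genes above 0 and 5 below.

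**Figure D2:**
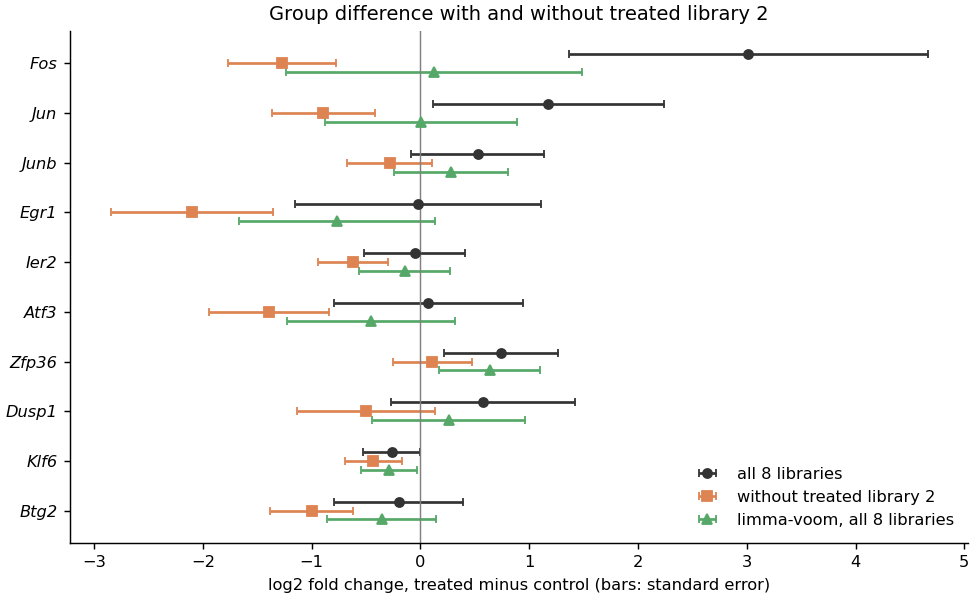
Log2 fold change of each gene, treated minus control, with its standard error as bars, from edgeR with all 8 libraries, edgeR without treated library 2, and limma-voom with all libraries. Leaving out treated library 2 moves every gene to the left and 9 of 10 below 0.

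Among the controls the 10 genes fell into more than one order. Control 4 was the highest control for 6 genes (Fos, Jun, Junb, Egr1, Ier2 and Zfp36), control 1 for Dusp1 and Btg2, and control 2 for Atf3 and Klf6. Control 2 was the lowest control for 6 genes. Control 4 was also the library with the most genes away from its group, 9.12% of genes lying more than 2-fold from the mean log2 level of the other controls, and the part of this in its immediate early gene levels was not tested. Among the treated libraries the order was more uniform, with library 2 on top for all 10 and library 4 at the bottom for 8, all but Atf3 and Btg2.

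Ranked over the 12036 genes by how far treated library 2 lay above the mean log2 level of the other treated libraries, Fos came first, Jun 3, Egr1 5, Atf3 8, Dusp1 9, Junb 18, Btg2 22, Zfp36 34 and Ier2 45, while Klf6 came 453. The top 1% of this ranking (120 genes) thus held 9 of the 10. The same ranking held 1 of them in control 1 (Dusp1), 1 in control 4 (Egr1) and 0 in each of the other 5 libraries. The ratio to the mean of the other treated libraries was 76.2 for Fos, 14.0 for Jun, 14.0 for Egr1, 8.27 for Atf3 and 5.59 for Dusp1. It ran from 1.54 (Klf6) to 4.09 (Junb) for the other 5. These ranks describe 1 library and carry no test.

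**Figure D3:**
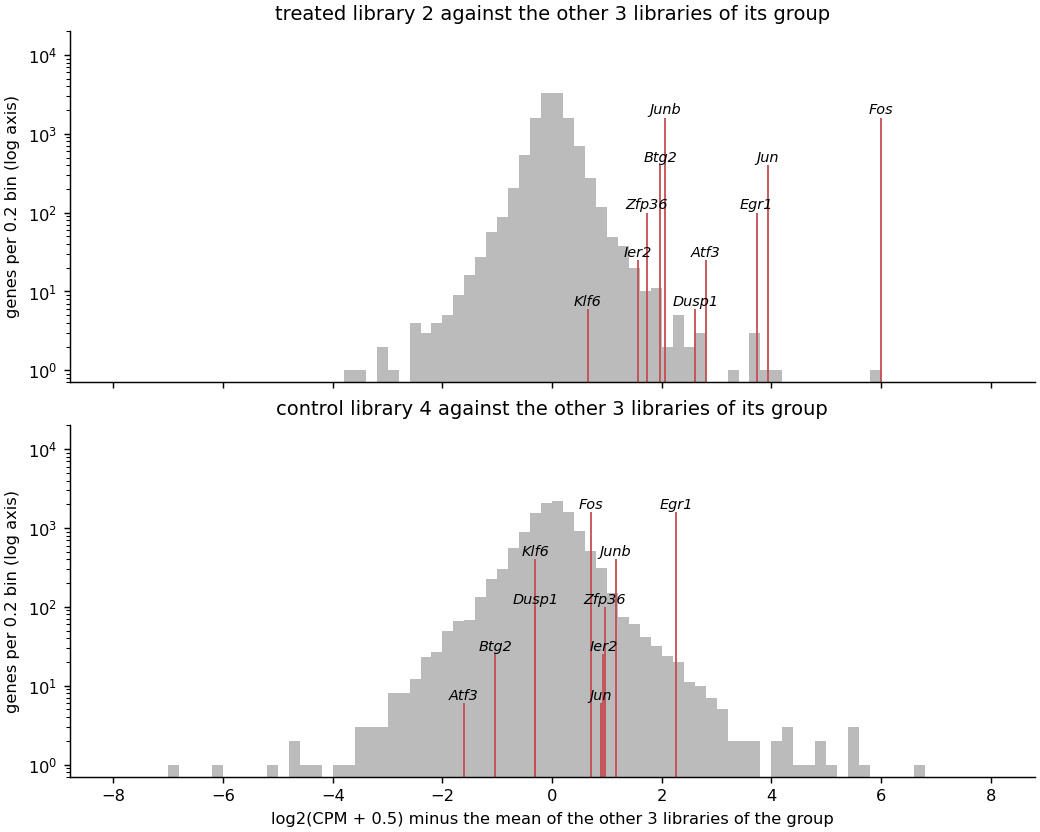
Distribution over 12036 genes of the log2(CPM + 0.5) of treated library 2 (top) and control 4 (bottom) minus the mean of the other 3 libraries of the same group. The vertical axis is the number of genes per bin on a log scale, and red lines mark the 10 immediate early genes, with heights set only for legibility. In treated library 2 all but Klf6 lie far to the right, Fos farthest at 6.0, whereas in control 4 they spread from -1.6 (Atf3) to 2.26 (Egr1).

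Per length of messenger RNA, the order of the genes also differed between libraries. By median FPKM of the controls, Ier2 was the most abundant at 24.3, followed by Zfp36 at 16.7, Dusp1 at 13.1, Junb at 10.8 and Jun at 10.6. Btg2 at 6.42, Egr1 at 3.69, Klf6 at 3.63, Atf3 at 2.13 and Fos at 1.56 FPKM followed. The ranges of neighbours in this order overlapped over the 4 controls. In treated library 2 Jun was the most abundant at 79.9 FPKM, with Dusp1 at 75.2, Zfp36 at 62.3 and Fos at 53.8 next. Fos, the least abundant in the controls, was thus among the most abundant of the 10 in this library.

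Several of these genes overlap others on the opposite strand in GENCODE, and the labelled kit does not mark strand. Exons of Junb overlap Prdx2, exons of Dusp1 overlap Ergic1, Jun overlaps the antisense gene Junos and Zfp36 the antisense gene Gm44710. In treated library 2 Prdx2 stood at 84.2 CPM and Ergic1 at 54.5 CPM, below the other 3 treated libraries in both cases, and Junos and Gm44710 were at 0.971 CPM or less in every library. Reads of the 2 strands cannot be told apart in the counts.

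Some relatives of the members followed treated library 2, though the median excess of each list was smaller than that of the members. Over the 103 genes of the 7 related lists whose mean level reached 1 CPM, treated library 2 was the highest of 8 for 18.4%. Control 1 was the highest for 34% of them. The first list held 32 other early genes of the AP-1, EGR, KLF and NR4A families and similar short-lived transcripts, of which 24 were tested. edgeR called none of them, 4 had an unadjusted p under 0.05, DESeq2 called 3 and limma-voom 0, with a median log2 fold change of 0.10. As background for this and the other lists, 29.4% of all 12861 tested genes had an unadjusted p under 0.05 by edgeR's test. DESeq2 called 2213 of the 12861 and limma-voom 1004. Treated library 2 was the highest of 8 for 9 of these 24, and its median log2 excess over the other treated libraries was 0.73, against 2.34 for the 10 members and 0.007 for all genes. The 2 most abundant, Zfp36l1 and Gadd45g, stood at 57.0 ± 10.1 against 70.0 ± 29.6 CPM and at 38.2 ± 28.4 against 11.6 ± 4.32 CPM (SD, n = 4 each, control against treated). Zfp36l1, a relative of tristetraprolin, reached 114 CPM in treated library 2. Gadd45g was at 75.5, 29.2, 40.4 and 7.51 CPM in controls 1 to 4 and at 7.35, 15.8, 14.7 and 8.36 CPM in treated libraries 1 to 4. Nr4a1, an orphan nuclear receptor picked for its values, stood at 1.15, 7.98, 0.971 and 0.956 CPM in treated libraries 1 to 4 and between 0.525 and 3.49 CPM in the controls. Fosb, another AP-1 subunit, picked likewise, was too low to be tested and stood at 0.150, 5.16, 0.0607 and 0.179 CPM in the treated libraries and at 0.621 CPM or less in the controls.

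Of the kinases and promoter-bound activators upstream, 3 of 27 were called, 1 lower and 2 higher in treated libraries, a share near the 9.21% of all tested genes and so no result about the list. Egfr, the epidermal growth factor receptor, fell from 249 ± 86.3 to 123 ± 26.6 CPM (edgeR log2 fold change -1.01, SE 0.25, adjusted p = 0.0355), with 373, 221, 230 and 173 CPM in controls 1 to 4 and 92.0, 153, 113 and 136 CPM in treated libraries 1 to 4. Every treated library lay below every control. Map2k2, the MAP kinase kinase MEK2, rose from 95.1 ± 13.0 to 137 ± 16.5 CPM (log2 0.53, SE 0.14, edgeR adjusted p = 0.042), and its substrate Mapk3, the kinase ERK1, rose from 27.3 ± 2.12 to 39.1 ± 6.03 CPM (log2 0.52, SE 0.13, edgeR adjusted p = 0.0412). Each of these calls held in 2 of 8 fits with a library left out, and all 3 were lost after the correction for length and GC content (edgeR adjusted p = 0.0874, 0.126 and 0.137, with log2 fold changes of -0.81, 0.38 and 0.32). Without treated library 2 their log2 fold changes were -1.11, 0.59 and 0.52. The median log2 excess of treated library 2 over the other treated libraries was 0.035 in this list, and it was the highest of 8 for 1 of 27.

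Of the 14 feedback phosphatases and inhibitors of the MAP kinase pathway, 13 were tested and edgeR called none, with 2 at an unadjusted p under 0.05, 1 called by DESeq2 and 0 by limma-voom. Errfi1, an EGFR inhibitor, stood at 1154 ± 593 against 1514 ± 242 CPM. Dusp6, the phosphatase of ERK, stood at 45.2 ± 10.9 against 52.0 ± 30.2 CPM and was the one gene of this list with its highest level in treated library 2, at 96.3 CPM against 60.1 CPM in the next library, control 3. Of 12 AU-rich messenger RNAs that tristetraprolin binds, only 4 passed the filter on low counts, edgeR called none, 2 had an unadjusted p under 0.05, DESeq2 called 1 and limma-voom 0. The median log2 excess of treated library 2 over the other treated libraries was 1.48 over the 3 genes of this list whose mean level reached 1 CPM, the largest of the 7 lists. Cxcl1, a neutrophil chemokine, stood at 9.16 ± 4.87 against 8.40 ± 5.59 CPM. Il1b, the cytokine interleukin 1 beta, stood at 4.81, 10.1, 14.6 and 2.10 CPM in the controls and at 0.600, 3.87, 1.46 and 0.836 CPM in the treated libraries (edgeR adjusted p = 0.0924).

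Lists of 3 other inputs to these genes held no edgeR call. Treated library 2 was the highest of 8 for 4 of 12 heat shock genes, 1 of 15 glucocorticoid-responsive genes and 2 of 10 ATF4 genes. The share over the 12036 genes was 8.57%. Its median log2 excess over the other treated libraries was 0.206 for the heat shock genes and 0.195 for the ATF4 genes. Of 12 cytosolic heat shock genes 2 had an unadjusted p under 0.05, DESeq2 called 1 and limma-voom 0. Hspa8 stood at 1932 ± 670 against 1506 ± 42.8 CPM and Hsp90ab1 at 1354 ± 351 against 1033 ± 80.2 CPM, both constitutive chaperones. Of 15 tested glucocorticoid-responsive genes, Errfi1 among them as in the feedback list, 1 had an unadjusted p under 0.05, DESeq2 called 1 and limma-voom 0, and the median log2 excess of treated library 2 was -0.04. Tat, tyrosine aminotransferase, stood at 5732, 1056, 520 and 513 CPM in controls 1 to 4, so that control 1, the control highest in Dusp1 and Btg2, was also the highest here, and at 1954, 1188, 1336 and 1356 CPM in the treated libraries. Pck1 of gluconeogenesis was at 4783, 2079, 1532 and 548 CPM in the controls, again highest in control 1, and at 2465 ± 104 CPM in the treated group. The part of such signals in the levels of Dusp1 and Btg2 was not tested. Of 10 tested genes of the ATF4 stress response 3 had an unadjusted p under 0.05, DESeq2 called 2 and limma-voom 0. Atf4 itself stood at 54.0 ± 7.84 against 73.2 ± 4.36 CPM (edgeR adjusted p = 0.054), and Cebpg, its dimer partner, at 85.3 ± 9.02 against 69.7 ± 9.27 CPM.

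**Figure D4:**
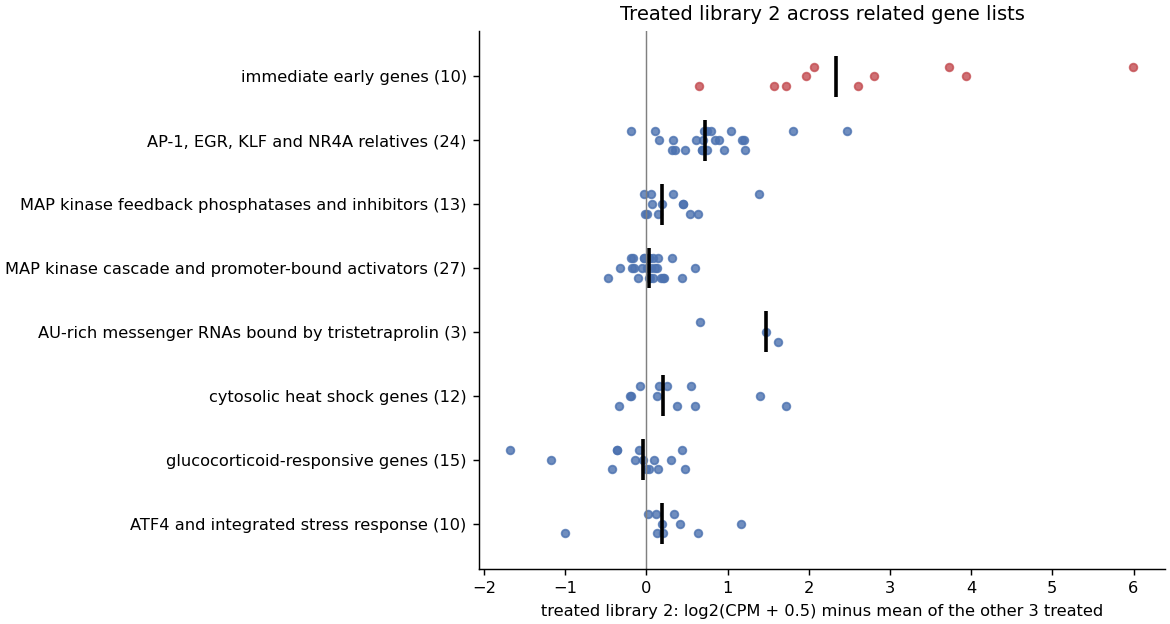
Each point is a gene whose mean level reached 1 CPM, placed by the log2(CPM + 0.5) of treated library 2 minus the mean of the other 3 treated libraries. Rows are the 10 immediate early genes and the 7 related lists, with the number of genes plotted, and black bars are medians. The members have a median of 2.34, the 3 AU-rich messenger RNAs plotted 1.48, the AP-1, EGR, KLF and NR4A relatives 0.73, and the kinases 0.035.

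Immediate early genes can be expressed in many liver cell types, and in these bulk libraries fewer cells of a type and less RNA per cell cannot be told apart. The summed level of 8 Kupffer cell and macrophage markers ran from 402 to 928 CPM in controls and from 255 to 523 CPM in treated libraries, and 2 of the 8 were called lower. Within the treated group it was highest in library 2, at 523 CPM against 255 to 415 CPM. The 6 markers of sinusoidal endothelium summed to 266 to 385 CPM in controls and 196 to 288 CPM in treated libraries, with 1 called lower and library 2 again the highest treated library. Stellate cell markers summed to 325 to 411 against 248 to 342 CPM. T and NK cell markers summed to 5.25 to 18.9 against 2.64 to 3.95 CPM, a sum over 6 markers. Only 3 of these passed the filter on low counts, and 2 of the 3 were called lower. Library 2 was not the highest treated library for either cell type. Over all tested genes 3.75% were called lower. No marker of any list was at 0 in all libraries. The part of these cell types in the levels of the 10 genes was not tested. Neutrophil markers summed to 4.75 to 10.7 against 6.03 to 17.2 CPM, B cell markers to 8.11 to 11.5 against 8.5 to 11.6 CPM, cholangiocyte markers to 18.8 to 31.2 against 13.9 to 34.3 CPM and erythroid markers to 112 to 386 against 300 to 397 CPM, with none called and treated library 2 never the highest treated library.

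By the rule that takes the 5 genes whose log2 level most resembled the mean standardized level of the 10 genes over the 8 libraries, out of 9130 genes whose mean level reached 5 CPM, the nearest were Zbtb34, Trim12c, Fgfr1op, Utrn and Smlr1, with Pearson correlations of 0.951, 0.89, 0.858, 0.857 and 0.855. The likeness was in order, not in size: treated library 2 was the highest of 8 for each, by 1.18 (Utrn) to 1.89 (Smlr1) times the mean of the other treated libraries. None was called between the groups (edgeR adjusted p = 0.7 to 0.976).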

How the data were processed

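RNA was sequenced from 8 liver libraries. No batch is labelled. The deposited counts are raw read counts per gene, per the file headers, and the deposited FPKM values are these counts divided by gene length and library total, as checked on the values (1% tolerance). HISAT2, HTSeq 0.13.5, DESeq2 1.32.0 and the build GRCm38 were used, per the submitters' processing notes, with no role stated. The sources used here give neither the strand setting nor the annotation release. Positions came from GENCODE M21 on GRCm38 and promoter sequences from RefSeq (GRCm38.p6).

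The members and the gene lists were chosen with earlier results of these data known. In edgeR 4.0.16 (R 4.3.3), filterByExpr with a minimum count of 10 and a total of 15 kept 12861 of 24547 genes, all 10 members and 104 of the related genes among them, TMM factors (0.937 to 1.108) were applied, and the robust quasi-likelihood F test compared 4 treated with 4 control libraries, adjusted by Benjamini-Hochberg over all tested genes. Standard errors were derived from the F statistic. The steps were tested on simulated data. All members are described, and of each related list up to 4 called genes, or the 2 of highest mean FPKM where none was called. Alternatives were other scalings, filters and thresholds, DESeq2 1.42.0, limma 3.58.1 (voom, and log2(FPKM + 1) or log2(FPKM + 0.1)), a replicate block, a spline correction for gene length and GC content, and leaving out libraries.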

Additional observations from a re-analysis of the deposited data

Results flagged for a closer look

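In 8 of the 20 groups of 4 libraries (10 genes in each of the 2 groups), 1 library passed a cut-off for outliers. The gap to its nearest library was divided by the range of the group, both in CPM. Normally distributed values pass this cut-off by chance in about 1 in 20 groups. These CPM values were not shown to be normally distributed, so that rate may not hold here. Gaps on the log scale used for the ranks were not tested. In 7 of the 8 groups the library was treated library 2. Fos stood there at 122 CPM, Jun at 245 CPM, Egr1 at 88.9 CPM, Ier2 at 74.2 CPM, Atf3 at 14.9 CPM, Zfp36 at 208 CPM and Btg2 at 39.6 CPM. The gap was 0.982 of the range for Fos and 0.84 to 0.963 for the other 6. The remaining case was Dusp1 at 108 CPM in control 1 (0.844 of the range). The 10 genes share their libraries, so these are not independent events.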

How the results depend on the processing

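No immediate early gene was called in any planned setting, the 8 fits with a library left out included. Without control 4 and treated library 2 together, chosen after seeing the data, 3 were called lower by edgeR's test: Egr1 at -1.16, Atf3 at -1.70 and Btg2 at -1.23. DESeq2 gave fold changes but neither an unadjusted nor an adjusted p for Fos, Jun and Egr1.

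The direction of most members was not stable. With a library left out the log2 fold change ran from -1.28 to 3.42 for Fos, -0.89 to 1.56 for Jun, -0.28 to 0.91 for Junb, -2.10 to 0.93 for Egr1, -0.62 to 0.23 for Ier2, -1.39 to 0.49 for Atf3, 0.11 to 1.02 for Zfp36, -0.50 to 1.28 for Dusp1, -0.43 to -0.076 for Klf6 and -1.0 to 0.24 for Btg2; the lowest value was that without treated library 2 for all 10. Without control 4 and treated library 2 it was -1.06 for Fos, -0.65 for Jun and -0.66 for Dusp1. Without controls 2 and 4 Egr1 stood at 0.68, and with library size alone at 0.0077. Atf3 stood at -0.46 by limma-voom, at -0.22 on log2(FPKM + 1), with or without a filter, and at -0.47 on log2(FPKM + 0.1), where Jun stood at -0.023.

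The replicate numbers of the titles showed no clear pairing of the libraries, though 4 pairs cannot exclude one. The correlation of deviations of same-numbered libraries ran from 0.01 to 0.197. It was over 0.1 in 1 of 4 pairs, and 3 of 8 libraries correlated best with their own number. With the replicate block 0 members were called, and Fos stood at -0.072, Jun at -0.0026 and Atf3 at -0.42. With the block and the length and GC correction Fos stood at -0.19, Jun at -0.13, Junb at -0.16 and Atf3 at -0.47, and with the correction alone Junb stood at 0.089. The causes were not tested.

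Calls in the related lists, 3 with all libraries, numbered 5 with the replicate block, 0 with the correction, 13 by DESeq2, 0 on log2(FPKM + 1) without a filter, 8 without controls 2 and 4, 10 without control 4 and treated library 2, 0 at an adjusted p under 0.01 and 10 under 0.1, and 0 to 14 with a library left out. Calls over all genes, 1184 with all libraries, numbered 475 with the correction, 427 with the correction and the replicate block, 2213 by DESeq2, 480 on log2(FPKM + 1) without a filter, 145 at an adjusted p under 0.01, 2272 under 0.1, and 183 (without treated library 3) to 2330 (without control 4) with a library left out. The SE of the members' log2 fold changes ran from 0.26 (Klf6) to 1.65 (Fos) with all libraries, and that of Fos was 0.50 without treated library 2.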

Other observations

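Treated library 2 was also set apart by a few genes that are not on the lists, chosen here after their values were seen. Ptp4a1, a phosphatase first found as an immediate early gene of regenerating liver, stood at 9.15 CPM in it, against 0.836 to 2.43 CPM in the other treated libraries and 1.15 to 1.63 CPM in the controls. Gdf15, a hormone induced by cell stress, stood at 74.0 CPM in it, against 6.81 to 17.1 CPM in the other treated libraries and 1.70 to 6.25 CPM in the controls, so all 4 treated libraries lay above all controls. Hsd3b5 and Cyp2d9, known for male-predominant expression in mouse liver, stood at 10.03 and 243 CPM in it, against 0.239 to 1.15 and 32.1 to 45.1 CPM in the other treated libraries. In the controls Hsd3b5 ranged from 1.24 to 27.7 CPM and Cyp2d9 from 17.0 to 54.6 CPM.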
